A study of Mus musculus with 24 samples.

Results

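The motile cilium axoneme genes were the protein-coding rows of the gene FPKM table whose symbols begin with Dnah, Dnai, Rsph, Cfap or Drc followed by a number, together with Foxj1. This rule found 58 of 54532 genes: 15 Dnah, 8 Rsph, 31 Cfap and 3 Drc genes and Foxj1. No row carried a Dnai symbol followed by a number, because the table gives these intermediate chains under older names (Dnaic1, Dnaic2), which were read with the other cilium genes. The rule reads only symbols and biotypes. Brain RNA came from 24 male WT C57Bl6 mice aged 8 to 12 weeks, in 4 groups of 6. Mice were infused for 14 days by osmotic minipump with saline vehicle or with angiotensin II at 0.7 mg/kg/d, the pressor peptide that raises blood pressure. At the start of the infusion each mouse also received either saline or 1000000 human amnion epithelial cells into the tail vein, which gave the groups vehicle, angiotensin II, vehicle + amnion epithelial cells and angiotensin II + amnion epithelial cells. All mice thus carried a minipump and received an injection, and the cells were human, from term placentae. RNA was taken from brain hemispheres as a whole, so that fewer ciliated cells and less RNA per ciliated cell cannot be told apart in any value given here.

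Motile cilia beat because dynein motors, fixed in rows as outer and inner arms on the doublet microtubules of the axoneme, slide the doublets against each other. Radial spokes and the central apparatus regulate the motors, the nexin-dynein regulatory complex links neighbouring doublets, and microtubule inner proteins stiffen the tubules. In the brain such cilia stand on the ependymal cells that line the ventricles and move cerebrospinal fluid, and the transcription factor Foxj1, acting beside the RFX factors, switches on the genes that build them. Several members also serve outside motile cilia or are used mainly in sperm.

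The libraries held 16536449 to 25308700 reads, recovered from the steps of the FPKM values (fragments per kilobase of gene and per 1000000 fragments). Total FPKM split them into 18 libraries with totals of 277116 to 298301 and 6 with totals of 338334 to 348597, in which the mitochondrial share of reads was 6.17% to 6.85% against 4.79% to 5.75%. By group, the 6 came from replicates 5 and 6 of vehicle, replicate 5 of angiotensin II, replicate 6 of vehicle + amnion epithelial cells, and replicates 5 and 6 of angiotensin II + amnion epithelial cells. What set them apart is not given in the labels, so results are given with and without them where they matter.

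The members share a feature of sequence that the rule did not use. RFX factors bind a short motif, searched as the letters GTTGCCA, as GTTGCTA, as GTTACCA and also as GTTACTA, on both strands, in windows of 250 bases before and 50 bases from the gene start (RefSeq, GRCm38.p6). Of the 46 members with a window, 29 (63.04%) held such a motif, against 13.1% of 27025 symbols and 12.5% of 16497 protein-coding symbols. The matches in members lay close to the start, with a median of 42.5 bases before it among the 34 that were wholly upstream. Positions were not read for other genes, so this closeness cannot be called particular to the members. It was present in 7 of 9 inner arm dynein heavy chains, 5 of 6 microtubule inner proteins and 3 of 3 genes of the nexin-dynein regulatory complex, but in 1 of 5 outer arm heavy chains and 2 of 7 radial spoke genes. The forkhead motif GTAAACA, searched in the same way, was found in 3 of the 46 members (6.52%) and 4.05% of all symbols. A match of letters is a description of these windows and says nothing of binding.

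One stretch of 100 bases is shown for each role, from the member with the highest level whose RFX motif lay before the start, with few exon bases in the stretch, so that the shared letters can be seen. They lie at chr15:28203611-28203710 (plus strand) for Dnah5, chr1:46425408-46425507 (plus strand) for Dnah7c, chr10:75032587-75032686 (minus strand) for Rsph14, chr5:30281293-30281392 (plus strand) for Drc1, chr5:5664233-5664332 (minus strand) for Cfap69, chr8:95434912-95435011 (minus strand) for Cfap20, chr16:44394699-44394798 (plus strand) for Cfap44, chr9:8042946-8043045 (minus strand) for Cfap300 and chr14:20452226-20452325 (minus strand) for Cfap70. Capitals mark the RFX motifs, and Cfap44 carried a pair of them in opposite directions without a gap.
Dnah5: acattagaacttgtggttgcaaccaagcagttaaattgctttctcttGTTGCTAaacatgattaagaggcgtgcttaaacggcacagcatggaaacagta
Dnah7c: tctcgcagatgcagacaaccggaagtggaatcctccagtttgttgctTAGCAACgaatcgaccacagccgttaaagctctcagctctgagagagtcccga
Rsph14: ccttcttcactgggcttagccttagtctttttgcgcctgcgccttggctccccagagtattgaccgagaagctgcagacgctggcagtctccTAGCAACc
Drc1: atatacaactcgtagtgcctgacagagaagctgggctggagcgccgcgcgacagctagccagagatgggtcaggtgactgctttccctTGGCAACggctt
Cfap69: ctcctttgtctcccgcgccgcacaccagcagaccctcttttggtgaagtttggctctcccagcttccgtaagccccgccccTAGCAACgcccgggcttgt
Cfap20: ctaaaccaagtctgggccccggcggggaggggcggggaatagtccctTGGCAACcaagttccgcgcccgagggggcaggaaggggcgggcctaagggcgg
Cfap44: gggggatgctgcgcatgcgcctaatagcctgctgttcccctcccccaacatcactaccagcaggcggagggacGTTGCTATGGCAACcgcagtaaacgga
Cfap300: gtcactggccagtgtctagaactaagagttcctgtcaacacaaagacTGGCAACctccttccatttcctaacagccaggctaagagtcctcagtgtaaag
Cfap70: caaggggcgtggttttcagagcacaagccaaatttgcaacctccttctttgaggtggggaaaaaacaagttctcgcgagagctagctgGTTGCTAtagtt

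The 58 genes spanned levels from 0.0341 FPKM for Dnah8 to 27.8 FPKM for Cfap36 (means over 24 mice), with a median over members of 0.422 FPKM against 1.003 over the 27286 genes tested. All 58 passed the filter of a value above 0 in at least 6 mice, 20 had a mean of at least 1 FPKM and 5 one below 0.1 FPKM. Cfap36, whose product binds the small GTPase Arl3 and which is used well beyond motile cilia, alone made up 26.1% of the summed FPKM. The sum over all members, with group medians of 110.0 FPKM in vehicle, 105.9 in angiotensin II, 102.7 in vehicle + amnion epithelial cells and 107.3 in angiotensin II + amnion epithelial cells, therefore does not track the ciliated genes alone. Vehicle and angiotensin II + amnion epithelial cells, with the higher medians, also held most of the 6 libraries of higher total FPKM. There the sum ran from 107.6 to 114.0 FPKM, against 97.86 to 112.7 in the 18. Ependymal markers were read in the same way: 21 were found above 0 and summed to 159.2 to 262.7 FPKM. Of this sum 79.99% came from Pcp4l1, with a mean of 127.8 FPKM, and Pltp, with 28.6 FPKM, both used well beyond ciliated cells. The other 19 markers summed to 30.6 to 53.0 FPKM, a sum formed after the levels were seen, and the highest among them was Foxj1. Of 8 spermatid markers Tnp1 and Akap4 were at 0 in all mice, and the 8 summed to 0.602 to 1.93 FPKM. Choroid plexus was present too, with Ttr, its transthyretin gene, at 348.1 to 1112 FPKM.

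**Figure D1:**
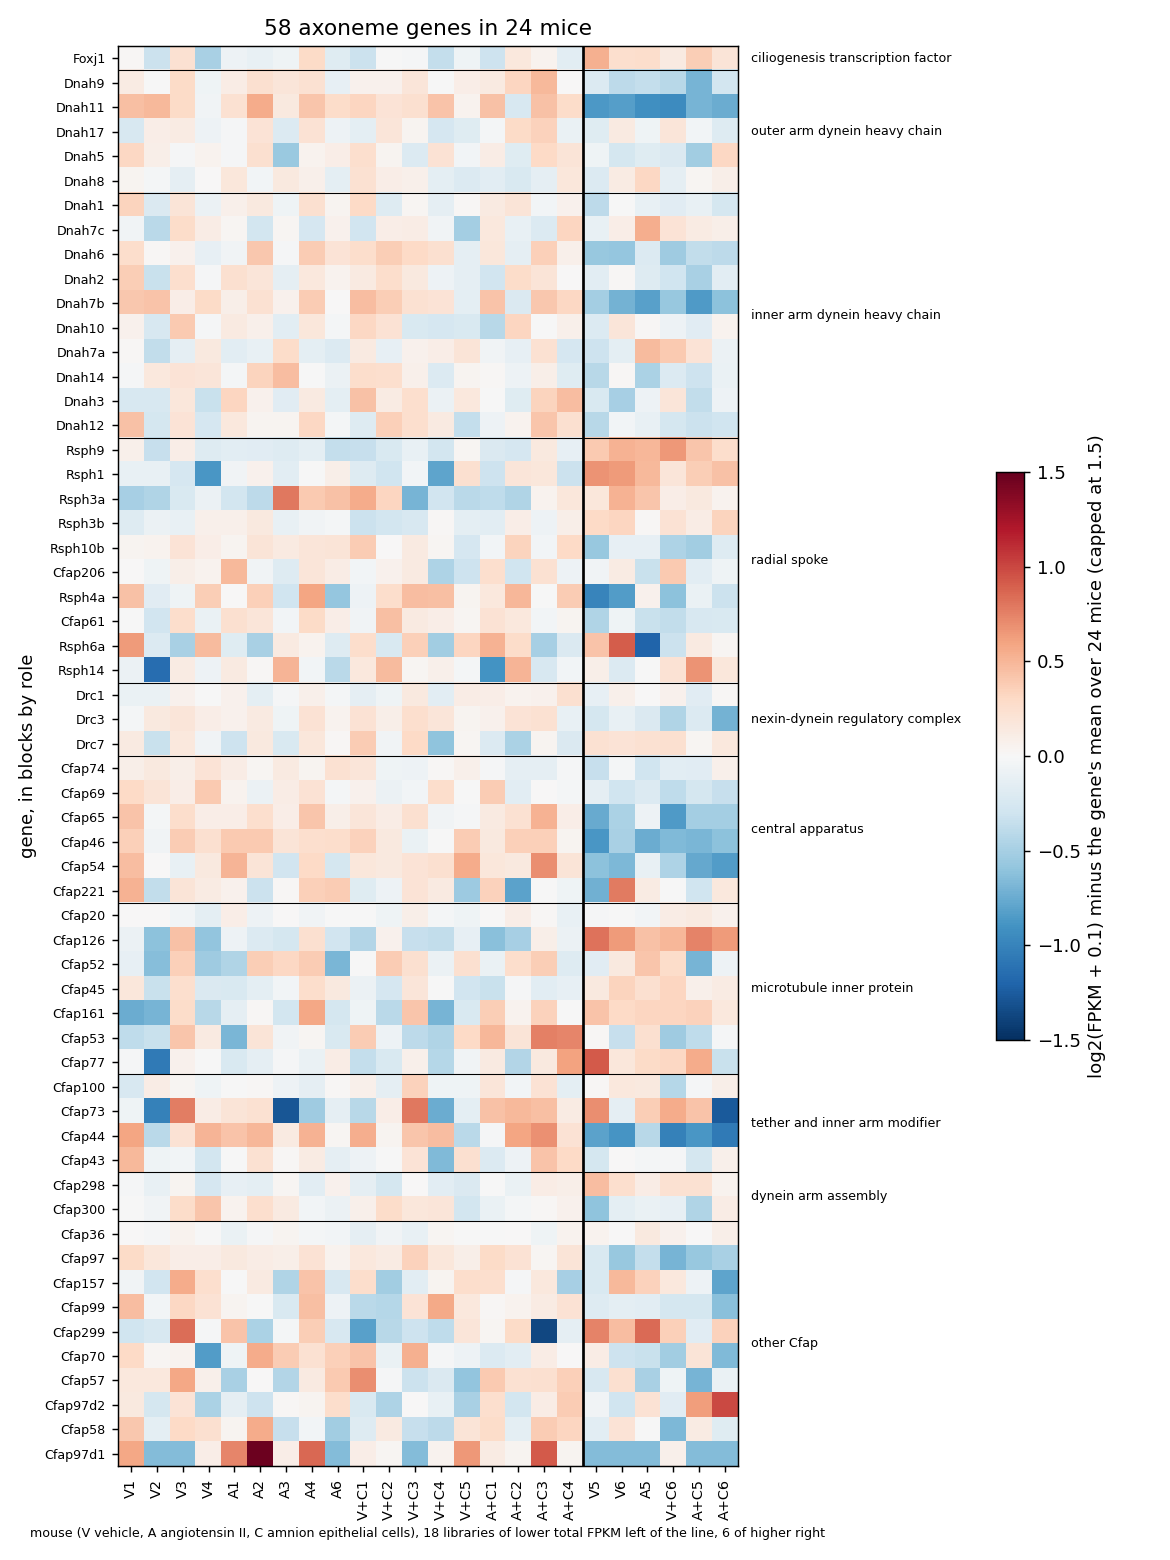
Each row is a gene, in blocks by role, and each column a mouse; colour is log2(FPKM + 0.1) minus the gene's mean over 24 mice. The 18 libraries stand left of the black line and the 6 of higher total FPKM right of it, where Dnah11, Dnah7b, Cfap46 and Cfap44 are low and Rsph9 and Cfap126 are high in every library.

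Foxj1, the master transcription factor of motile ciliogenesis, averaged 6.56 FPKM and ranged from 4.57 to 9.39 FPKM. In vehicle it ran from 4.57 to 9.39 FPKM with a median of 7.07, in angiotensin II from 5.69 to 7.91 with a median of 6.14, in vehicle + amnion epithelial cells from 5.04 to 7.13 with a median of 6.27, and in angiotensin II + amnion epithelial cells from 5.17 to 8.39 with a median of 6.95. The 4 groups overlapped widely, and vehicle alone held both the lowest and the highest mouse. The higher medians were in vehicle and angiotensin II + amnion epithelial cells, whose replicates 5 and 6 belong to the 6 libraries. Angiotensin II held only replicate 5 of them, and vehicle + amnion epithelial cells only replicate 6. In the 6 libraries Foxj1 was 0.37 higher on the log2 scale within groups. Group medians in the 18 libraries alone are not given here.

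The dynein heavy chains, the motors themselves, were among the lowest members per length. Dnah1, an inner arm heavy chain, was the most abundant at 0.866 FPKM (0.629 to 1.11 over the 24 mice), followed by Dnah7c at 0.359 FPKM and Dnah9, an outer arm heavy chain of the distal cilium, at 0.314 FPKM. The 15 heavy chains summed to a median of 3.25 FPKM in vehicle, 3.54 in angiotensin II, 3.56 in vehicle + amnion epithelial cells and 3.60 in angiotensin II + amnion epithelial cells, with group ranges that all overlapped. Dnah7a, Dnah7b and Dnah7c are near copies, and up to 16.5% of the stretches of 100 bases of one occur in another. Reads could therefore have been split among them in a way that the sources used here do not describe.

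Radial spoke genes ranged from 0.128 FPKM for Rsph14 to 6.72 FPKM for Rsph9, and not all were above the heavy chains. Rsph4a (0.766 FPKM), Cfap206, Cfap61, Rsph6a and Rsph14 lay below Dnah1. Rsph9 and Rsph1, which build the spoke head, averaged 6.72 and 3.98 FPKM, and Rsph3a and Rsph3b, copies of a spoke stalk gene, 3.67 and 2.86 FPKM. Rsph3a and Rsph3b share 44.7% and 46.1% of their stretches of 100 bases, so their separate levels are uncertain. Rsph9 overlaps Mrps18a on the map, and how reads in shared bases were counted is not given in the sources used here. Rsph6a, known from sperm flagella, stood at 0.141 FPKM, a mean of 6.92 reads.

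In the nexin-dynein regulatory complex Drc1 averaged 4.695 FPKM, Drc3 1.89 FPKM and Drc7 1.75 FPKM. Drc1 was one of the steadiest members, with a spread within groups of 7.86% against 6.39% from counting alone. Among microtubule inner proteins Cfap20 led with 8.29 FPKM and a spread within groups of 5.02%, whereas Cfap126, also called Flattop, averaged 1.37 FPKM with a spread of 35.6%, well above the 14.5% from counting. The spread of Cfap126 includes the split between the sets of libraries. It ran from 0.803 to 1.787 FPKM in the 18 libraries and from 1.789 to 2.36 FPKM in the 6. Over the 58 genes the spread between mice of a group ran from 4.59% to 118%, and in 21 genes it was more than 2 times the counting spread. All these spreads pool both sets of libraries, and spreads within the 18 alone are not given here. Central apparatus genes were led by Cfap74 at 1.91 FPKM and Cfap69 at 1.67 FPKM. The assembly factors Cfap298 and Cfap300, which act in the cytoplasm before dynein arms are docked, averaged 7.10 and 4.12 FPKM.

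The members differed between the sets of libraries, and not in one direction. In 11 of 58 genes (19.0%) the values of the 6 libraries lay wholly outside those of the 18, against 27.5% of all genes tested, a share below that of the table as a whole. Of the 11, Rsph9 and Cfap126 were higher in the 6 libraries and the other 9 were lower. Dnah11, an outer arm heavy chain of the proximal cilium, ran from 0.0468 to 0.0752 FPKM in the 6 libraries and from 0.140 to 0.317 FPKM in the 18. Cfap46, a central apparatus gene, ran from 0.259 to 0.370 FPKM against 0.512 to 0.766. Rsph9 ran from 7.93 to 10.4 FPKM against 5.11 to 7.29. These ranges left a gap in all 3 genes.

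Summed by role, the direction of the split differed between sums. The 5 outer arm heavy chains summed to 0.474 to 0.650 FPKM in the 6 libraries and to 0.779 to 1.18 FPKM in the 18, and the 6 central apparatus genes to 3.99 to 4.73 FPKM against 5.51 to 6.89. The 10 radial spoke genes summed to 23.6 to 27.5 FPKM in the 6 libraries and to at most 21.6 FPKM in the 18. This sum was carried by its abundant genes Rsph9, Rsph1 and Rsph3a: 5 of the 10 spoke genes were higher in the 6 libraries and 5 were lower, among them Rsph4a with a log2 difference of -0.58 and Rsph10b with -0.44. Of the 7 microtubule inner proteins 6 were higher, and of the 6 central apparatus genes 5 were lower. Foxj1 itself was 0.37 higher on the log2 scale in the 6 libraries within groups, with overlapping ranges of 7.13 to 9.39 FPKM and 4.57 to 7.91 FPKM. Gene length moved with the split: over the 58 genes the Spearman correlation of length with the log2 difference was -0.473, and over all genes tested -0.243. In the deposited table the heavy chains are 12009 to 19980 bases long, and 12 of 15 were lower in the 6 libraries, against 35 of 58 members and 56.7% of all genes tested. Genes are not independent replicates, so this is a description, and the part of length in the split was not tested.

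**Figure D2:**
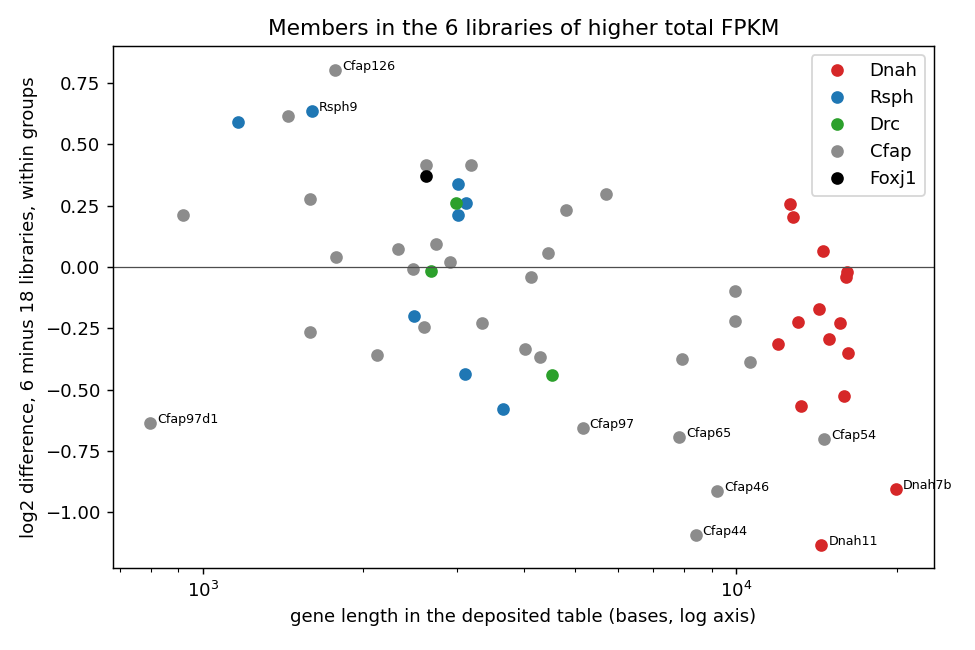
Horizontal axis, gene length in bases on a log axis; vertical axis, log2 difference between the 6 and the 18 libraries averaged within groups, for the 58 members. The heavy chains sit at the right and mostly below 0, with Dnah11 at -1.13, while Cfap126 stands highest at 0.80.

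The first comparison asked what angiotensin II does to the brain. On log2(FPKM + 0.1) with limma, 1 of 58 members had an unadjusted p under 0.05, against 2.21% of the 27286 genes tested, and no member and no gene passed at an adjusted p under 0.05 (0.0%), the lowest adjusted p of a member being 0.994. The median log2 fold change of the members was 0.03 with 37 of 58 higher, against a median of 0.02 over all genes, of which 55.4% were higher. Foxj1 had a log2 fold change of -0.02 (SE 0.15, 95% interval -0.33 to 0.29), so that a rise beyond 1.23-fold or a fall below 0.798-fold lay outside the interval.

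The member with the lowest p was Rsph6a. It ran from 0.0635 to 0.330 FPKM with a median of 0.214 in vehicle and from 0 to 0.151 FPKM with a median of 0.102 in angiotensin II, on 60 and 28 reads in all. The ranges overlapped, and all 6 mice given angiotensin II lay below the vehicle mean. Its log2 fold change was -0.61 (SE 0.25, limma p = 0.0259, adjusted p = 0.994, two-sided exact permutation p = 0.0671). In the 18 libraries alone it was -0.24 and no longer had an unadjusted p under 0.05. The same held when vehicle replicate 1, vehicle replicate 6 or angiotensin II replicate 5 was left out, with log2 fold changes of -0.54, -0.49 and -0.43. Next came Cfap97d1, a gene of the sperm axoneme, which rested on 3 reads in vehicle and 12 in angiotensin II (a ratio of 4.05 with a counting interval of 1.09 to 22.4, and an exact permutation p over mice of 0.165). Dnah3, an inner arm heavy chain, had a log2 fold change of 0.26 (SE 0.15, exact permutation p = 0.0584).

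The second comparison asked what amnion epithelial cells do in mice infused with angiotensin II. No member had an unadjusted p under 0.05, against 2.54% of all genes by limma, and none at an adjusted p under 0.05 (0.0% of all genes). The members' median log2 fold change was -0.06 with 24 of 58 higher, and that of all genes -0.02 with 45.3% higher. Foxj1 had a log2 fold change of 0.03 (95% interval -0.28 to 0.34). The lowest p belonged to Cfap97d2 at 0.33 (SE 0.18, exact permutation p = 0.123), Cfap53, a microtubule inner protein, at 0.38 (SE 0.23, exact permutation p = 0.132) and Cfap70, a protein of the outer arm region, at -0.31 (SE 0.22, exact permutation p = 0.126). In the 18 libraries alone Cfap53 reached 0.70, with an unadjusted p under 0.05 there.

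The third comparison set vehicle + amnion epithelial cells against vehicle. Here 1 of 58 members had an unadjusted p under 0.05, against 2.41% of all genes by limma, and none passed after adjustment (0.0% of all genes). The members' median was -0.01 with 28 of 58 higher, against 0.01 over all genes with 52.4% higher, and Foxj1 stood at -0.14 (95% interval -0.45 to 0.17). The member was Dnah3, which ran from 0.0302 to 0.107 FPKM with a median of 0.0561 in vehicle and from 0.0730 to 0.150 FPKM with a median of 0.108 in vehicle + amnion epithelial cells, on 97 and 178 reads in all. All 6 mice given cells lay above the vehicle mean, and 1 vehicle mouse, at 0.107 FPKM, reached into their range. Its log2 fold change was 0.41 (SE 0.15, limma p = 0.0103, adjusted p = 0.995, two-sided exact permutation p = 0.00866), and it was 0.34 in the 18 libraries alone, where the unadjusted p was no longer under 0.05. Dnah3 overlaps Lyrm1 on the map. Cfap58, a gene of the sperm flagellum, had a log2 fold change of -0.35 (SE 0.18, exact permutation p = 0.0606) and Dnah7a one of 0.26 (SE 0.14, exact permutation p = 0.0325).

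Between the groups that both received cells, angiotensin II + amnion epithelial cells against vehicle + amnion epithelial cells, 1 of 58 members had an unadjusted p under 0.05, against 2.66% of all genes by limma, and none passed after adjustment (0.0% of all genes). The members' median was 0.01 with 31 of 58 higher, and that of all genes -0.01 with 47.2% higher. Foxj1 stood at 0.15 (95% interval -0.16 to 0.46). The member was Cfap97d2, which ran from 0.146 to 0.246 FPKM with a median of 0.200 in vehicle + amnion epithelial cells and from 0.185 to 0.583 FPKM with a median of 0.328 in angiotensin II + amnion epithelial cells. The highest mice, at 0.583 and 0.433 FPKM, were replicates 6 and 5, both among the 6 libraries. Its log2 fold change was 0.59 (SE 0.18, limma p = 0.00395, adjusted p = 1.0, two-sided exact permutation p = 0.0130), and it was 0.37 in the 18 libraries alone, where the unadjusted p was no longer under 0.05. Cfap53 followed at 0.43 (SE 0.23, exact permutation p = 0.108) and Cfap58 at 0.34 (SE 0.18, exact permutation p = 0.0693).

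**Figure D3:**
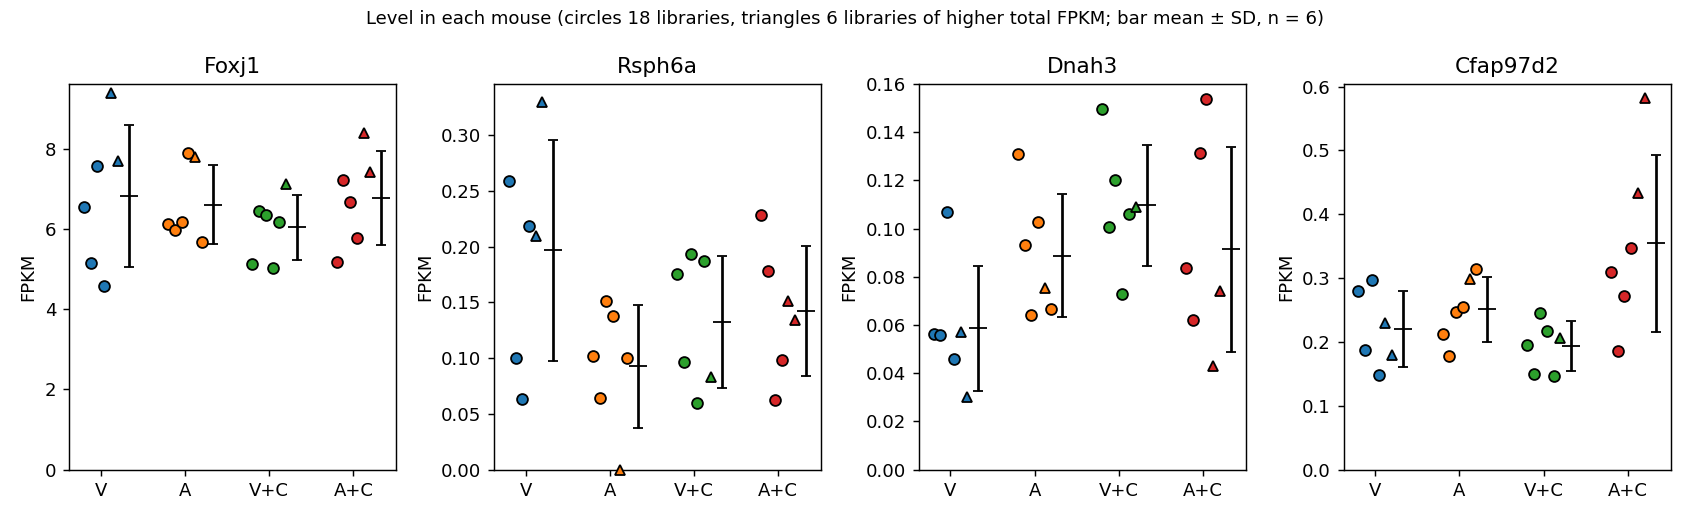
FPKM of Foxj1, Rsph6a, Dnah3 and Cfap97d2 in each mouse of the 4 groups (V vehicle, A angiotensin II, C amnion epithelial cells), with the mean and SD of 6 mice beside the points and triangles for the 6 libraries of higher total FPKM. In each gene the groups overlap, and the highest Cfap97d2 value, 0.583 FPKM, is a triangle.

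The interaction asked whether the effect of amnion epithelial cells differed between mice infused with angiotensin II and with vehicle. It had an unadjusted p under 0.05 in 1 of 58 members, against 2.54% of all genes by limma, and in none after adjustment (0.0% of all genes). The gene was Cfap58, with a log2 difference of 0.54 (SE 0.26, limma adjusted p = 0.931). The unadjusted p was no longer under 0.05 in 5 of 8 other settings, the replicate block among them, or in 17 of the 24 fits without 1 mouse, where the difference ran from 0.44 to 0.66. It stayed under 0.05 without vehicle replicate 2 or 5, angiotensin II replicate 2, vehicle + amnion epithelial cells replicate 2 or 5, or angiotensin II + amnion epithelial cells replicate 2 or 6. Its group means were 0.133 FPKM in vehicle, 0.107 in angiotensin II, 0.0843 in vehicle + amnion epithelial cells and 0.131 in angiotensin II + amnion epithelial cells, on 32 to 53 reads a group. Dnah3 had a log2 difference of -0.41 (SE 0.21) and Rsph6a one of 0.67 (SE 0.36), both with a limma adjusted p of 0.931. Foxj1 had one of 0.17 (95% interval -0.27 to 0.61), and one of -0.0253 in the 18 libraries alone. The 6 libraries lie unevenly along this contrast, with more of them in vehicle and angiotensin II + amnion epithelial cells than in the other groups. The comparisons share groups of mice, so a gene that appears in several of them rests partly on the same values.

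**Figure D4:**
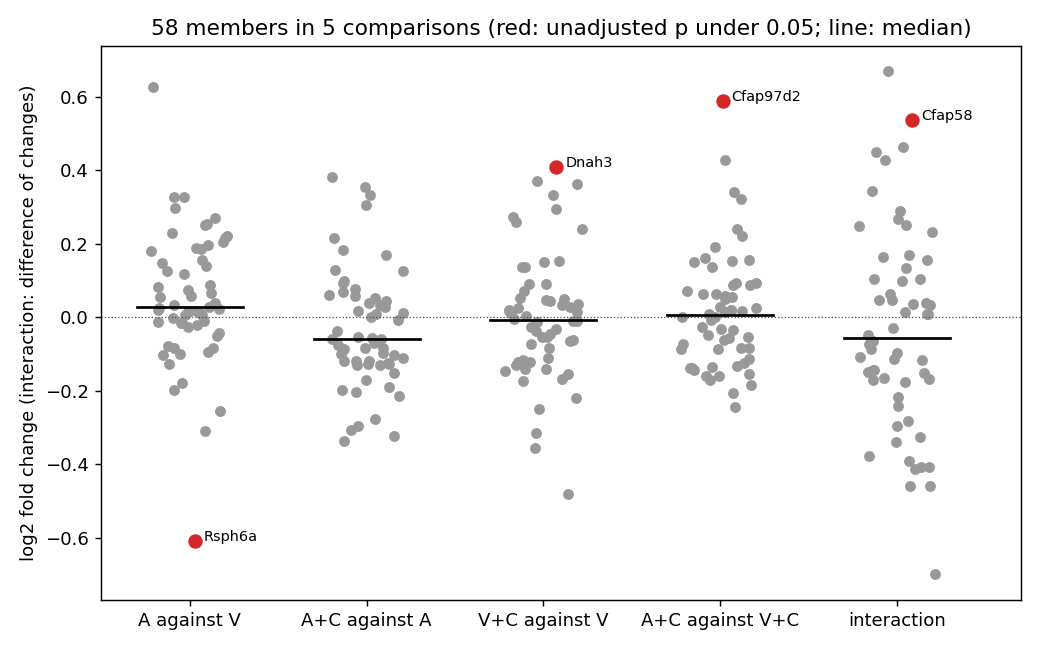
Log2 fold change of the 58 members in each of the 4 comparisons, and the difference of changes for the interaction; each point is a gene, the line the median, and red marks an unadjusted p under 0.05. The medians lie between -0.06 and 0.03, and 1, 0, 1, 1 and 1 genes are red.

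Across mice, part of the members followed Foxj1. The 18 libraries and the 6 were treated apart because they form separate clusters. Over the 18 libraries, r of log2(FPKM + 0.1) with Foxj1 had a median of 0.19 over the other 57 members and 0.02 over all other genes tested. At an unadjusted permutation p under 0.05, r was above 0 in 14 of the 57 members (24.6%), against 3.85% of all other genes, and at that p it was below 0 in none of the members. No gene passed after Benjamini-Hochberg adjustment over all 27285 relations. These points share their libraries, and with them depth and composition. All 4 treatments are pooled among them.

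Among members with a mean of at least 0.1 FPKM, those most like Foxj1 were Cfap126, Dnah9, Cfap52, Cfap65 and Dnah2. Below that level Dnah12, an inner arm heavy chain with a mean of 0.0425 FPKM, had r = 0.61 as well. Cfap126, the microtubule inner protein Flattop, had Pearson's r = 0.76 (permutation p = 0.00031, adjusted p = 0.469) and Spearman's rho = 0.69 (permutation p = 0.00188). For Dnah9 r was 0.69 (permutation p = 0.00138) and rho 0.76 (permutation p = 0.00039). For Cfap52, a microtubule inner protein, r was 0.66 (permutation p = 0.00262) and rho 0.68 (permutation p = 0.00254). For Cfap65, of the central apparatus, r was 0.63 (permutation p = 0.00493) and rho 0.70 (permutation p = 0.00169). For Dnah2, an inner arm heavy chain, r was 0.61 (permutation p = 0.00683) and rho 0.67 (permutation p = 0.00309). The adjusted p of Dnah9 and Cfap52 was 0.548, that of Cfap65 0.630 and that of Dnah2 0.649. Without the 2 mice farthest from the median of Foxj1, r was 0.68, 0.66, 0.57, 0.58 and 0.68 in the same order.

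In the 6 libraries r with Foxj1 was 0.76 for Cfap126 (exact permutation p = 0.0833), 0.09 for Dnah9, -0.53 for Cfap52, -0.10 for Cfap65 and -0.09 for Dnah2. Of the 57 members 21 had r above 0 in these 6 libraries, with a median of -0.14. Of all 27285 other genes tested 12755 did so, with a median of -0.03. The higher median seen for members over the 18 libraries was thus not seen there, where each r rests on 6 points. At the other end over the 18 libraries were Cfap74 with r = -0.46 (permutation p = 0.0561) and Cfap69 with r = -0.43 (permutation p = 0.0728), both of the central apparatus, and Dnah7b with r = -0.28 (permutation p = 0.258). By role the median r was 0.50 over the 7 microtubule inner proteins, 0.21 over the 10 inner arm heavy chains, 0.17 over the 10 radial spoke genes and -0.08 over the 5 outer arm heavy chains. The median r was 0.22 over the 29 members with an RFX motif in their window and 0.18 over the 17 without.

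**Figure D5:**
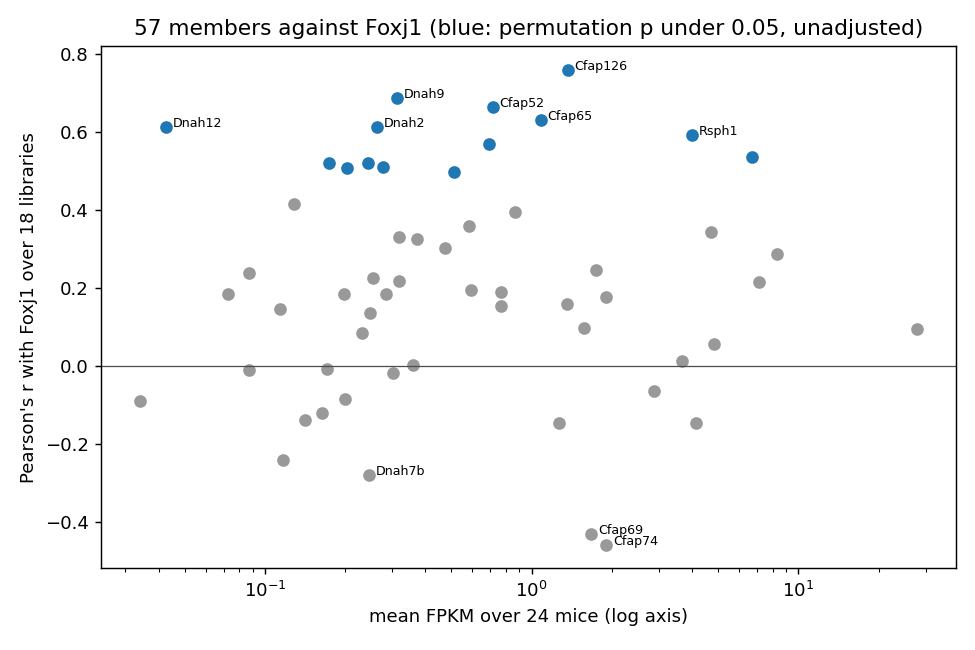
Pearson's r with Foxj1 over the 18 libraries against mean FPKM on a log axis for the 57 other members; blue marks the 14 genes with an unadjusted permutation p under 0.05. Values run from -0.46 for Cfap74 to 0.76 for Cfap126 with no drift along the axis of level.

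Among genes outside the family with a mean of at least 1 FPKM, those most like Foxj1 over the 18 libraries were Ccdc157 (r = 0.82), Vat1 (r = 0.79), Hic1 (r = 0.78), Cartpt (r = 0.77) and 1500009C09Rik (r = 0.77). In the 6 libraries r was -0.69 for Ccdc157, 0.79 for Vat1, 0.76 for Hic1, 0.38 for Cartpt and 0.84 for 1500009C09Rik. Cartpt encodes a neuropeptide of the hypothalamus and other regions, not a cilium protein. Over 20 ependymal markers other than Foxj1 the median r was 0.44, from -0.22 for Mia to 0.75 for Ccdc153, with 0.73 for Tmem212. Pcp4l1 and Pltp, the 2 most abundant, had r of 0.12 and 0.07. At an unadjusted permutation p under 0.05, r was above 0 in 8 of the 20 (40.0%), against 3.85% of all other genes. Of these markers Dynlrb2, Enkur, Tekt1, Tekt4, Ak7, Fam183b, Odf3b and Zmynd10 also stand in the lists of other cilium genes. Calml4 is also in the choroid plexus list and Hdc in the hypothalamic list. The 9 markers of hypothalamic neurons had a median r of 0.39, with 0.61 for Oxt and 0.60 for Trh. Of these 9, 3 (33.3%) had r above 0 at an unadjusted permutation p under 0.05. The 16 choroid plexus markers had a median of 0.14, and the 11 striatal and the 10 cortical and hippocampal markers both -0.14. Without the 2 mice farthest from the median of Foxj1 the median r was 0.41 for ependymal, 0.46 for hypothalamic, 0.09 for choroid plexus and -0.06 for striatal markers, and it turned to 0.16 for cortical and hippocampal markers. In the 6 libraries the median r was 0.23 for ependymal, 0.15 for hypothalamic and 0.42 for choroid plexus markers, and 0.62 for the 10 astrocyte markers, for which it was 0.04 over the 18. There it was also 0.54 for meningeal fibroblast markers and 0.41 for both endothelial markers and housekeeping genes. Such medians were thus not particular to choroid plexus or astrocytes. Among others, it was -0.28 for striatal, -0.33 for cortical and hippocampal and -0.27 for microglial markers. The part of these markers in the likeness was not tested.

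Other genes of the motile cilium programme were counted in the same comparisons. Of 52 further axoneme structure genes, 1 had an unadjusted p under 0.05 by limma in angiotensin II against vehicle (Dydc2, higher), 1 in the second comparison (Ccdc113, higher), 2 in the third (Ak9 higher, Tekt2 lower), none in the fourth and 1 in the interaction (Iqca). Of 20 further dynein and docking subunits, 1 did so in the second comparison (Dynlrb2, 0.41 on the log2 scale, adjusted p = 1.0) and none in the others. Of 13 tested arm assembly factors, 1 did so in the second comparison (Dnaaf3, 0.67, adjusted p = 1.0), and the same gene did so in the interaction. Of 16 tested regulators of ciliogenesis E2f5 was lower in the second comparison, Trp73 higher in the third and Rfx2 higher in the fourth, each at an unadjusted p only. Over these 4 lists, 1, 4, 3, 1 and 2 of 101 genes had an unadjusted p under 0.05 in the 5 comparisons (0.99%, 3.96%, 2.97%, 0.99% and 1.98%), against 2.21%, 2.54%, 2.41%, 2.66% and 2.54% of all genes. None of the 101 passed at an adjusted p under 0.05. Ependymal markers summed to medians of 188.7 FPKM in vehicle, 182.7 in angiotensin II, 175.7 in vehicle + amnion epithelial cells and 185.8 in angiotensin II + amnion epithelial cells. Without Pcp4l1 and Pltp the medians were 41.1, 35.1, 36.0 and 40.7 FPKM in the same order, and the group ranges overlapped in both sums. In both sums the higher medians were in vehicle and angiotensin II + amnion epithelial cells, which also held most of the 6 libraries. The part of these libraries in the medians was not tested. The 6 libraries held the highest sums of all 21 markers, 244.0 to 262.7 FPKM against 159.2 to 194.3 FPKM in the 18, but without these 2 genes the ranges overlapped, at 41.3 to 53.0 against 30.6 to 44.4 FPKM. Such a rise was not particular to ependymal markers: in 13 of the 17 gene lists, housekeeping genes among them, the sums in the 6 libraries all lay above those in the 18. The 6 libraries were set apart by their higher total FPKM, so higher sums follow in part from how the sets were formed.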

How the data were processed

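Brain RNA of 24 mice was measured by bulk RNA-seq of poly-A RNA. The authors deposited 1 table of FPKM values, scaled per kilobase of gene and per 1000000 fragments, with gene length, coordinates (GRCm38) and biotype. In the submitters' processing notes the authors named DESeq 1.10.1 and the builds GRCm38 and mm10. The aligner, the counter and the use of strand are not given in the sources used here. Groups and replicate numbers came from the sample labels. Mice lived with littermates and treatments were allocated at random, but which mice shared a litter, cage or processing day is not given in the sources used here, so p-values measure the spread between these samples.

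Genes above 0 in at least 6 of 24 mice were tested on log2(FPKM + 0.1) in R 4.3.3 with limma 3.58.1, all 4 groups in one fit, eBayes with trend, two-sided, Benjamini-Hochberg adjusted over all genes. Fold changes of low genes are understated on this scale. The rule "called" means an unadjusted p under 0.05. Recovered whole reads (100% of values) were used for counting spread and 1 alternative. Exact permutation tests compared 6 with 6 mice, and likeness to Foxj1 used 100000 permutations. Counting intervals and spreads cover counting error only. The fit was tested on simulated data.

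Named members were Foxj1, the 2 highest in level of each name family, the 3 of lowest p in each comparison, the 5 of highest and 3 of lowest r with Foxj1 (mean of at least 0.1 FPKM), the 5 non-members of highest r (mean of at least 1 FPKM) and any at an adjusted p under 0.05. The members and the gene lists were chosen with earlier results of these data known. Alternatives were pseudocounts of 1 and 0.01, no filter, a mean of at least 1 FPKM, only the compared groups, a replicate block, median-ratio rescaling, voom on recovered reads, the set of libraries as a term, only the 18 libraries, and each mouse left out. The ependymal sum without its 2 most abundant genes was added after the data were seen.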

Additional observations from a re-analysis of the deposited data

Results flagged for a closer look

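In 25 named members over the 4 groups, 100 sets of 6 values were looked at for a mouse far from the rest, at a rate of about 1 in 20 by chance, and 6 were found. Rsph9 was highest in angiotensin II replicate 5, at 9.31 FPKM against 5.94 in the next mouse. Dnah7b was lowest in the same mouse, at 0.0899 FPKM against 0.234. In vehicle + amnion epithelial cells replicate 6, Drc3 stood at 1.34 FPKM against 1.93 in the next lowest mouse, Dnah9 at 0.206 against 0.305 and Cfap65 at 0.540 against 1.004. These 5 values come from the only library of each group that belongs to the 6 of higher total FPKM. Cfap20 was lowest in vehicle replicate 4, one of the 18 libraries, at 7.495 FPKM against 8.06.

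Cfap58 was picked up by the interaction term at an unadjusted p just under 0.05, with a log2 difference of 0.54 (limma adjusted p = 0.931), so that a different response to amnion epithelial cells between infusions was not established. It was 0.59 in the 18 libraries alone, where the unadjusted p was no longer under 0.05, nor was it in 17 of 24 fits without 1 mouse.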

How the results depend on the processing

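No member passed at an adjusted p under 0.05 in any comparison or alternative. Counts of members at an unadjusted p under 0.05 by limma moved by 1 or 2 genes. The share of all genes at that p in each alternative is not given here. These counts were therefore not set against a general rate and say nothing of the members as a set. In the order of the report (A for angiotensin II against vehicle, B for cells against none under angiotensin II, C for cells against none under vehicle, D for angiotensin II against vehicle among mice with cells, E for the interaction), they were 0, 2, 0, 3 and 0 in the 18 libraries alone and 0 in all 5 with a mean of at least 1 FPKM, where 20 members were tested. With voom on recovered reads they were 2 in A, 2 in C and 2 in E. With a term for the 6 libraries they were 3 in C and 3 in D, with only the compared groups 0 in A, and with a pseudocount of 1 they were 1 in B, 2 in D and 0 in E. E also gave 0 with a pseudocount of 0.01 and with no filter. Leaving out each mouse in turn gave 0 to 2, 0 to 1, 1 to 3, 1 to 3 and 0 to 2. Same-numbered mice showed no steady pairing: their deviations correlated from -0.224 to 0.797, and a mouse correlated best with its own number in 0 to 3 of 6 cases. The highest values, 0.726 to 0.797, were between mice that both belong to the 6 libraries. These correlations cannot settle whether the numbers pair mice. With the replicate block D gave 2 and the other counts were the same, but in E the gene was Cfap298 (0.25 on the log2 scale) in place of Cfap58. The sign of the Foxj1 change, not called in any comparison, turned in A to 0.0482 with a term for the 6 libraries and 0.11 in the 18 libraries, in B to -0.0347 and -0.0381, and in E to -0.0253 in the 18 libraries. Leaving out mice moved it from -0.12 to 0.083 in A and from -0.0349 to 0.10 in B. The cause of these moves was not tested. The number of members like Foxj1 was 14 also after median-ratio rescaling, but the share of all genes after rescaling is not given here. The median r was then 0.17 over the members and -0.004 over all other genes tested. Depth limits the low members, since a mean of 55.6 reads was the median over the 58 genes and 24 of them had means under 50.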
